A study of Homo sapiens with 12 samples.

Results

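The genes described here are 52 genes of the short arm of chromosome 17, bands p11 to p12, between SCO1 and AKAP10. They were taken by name from a list of genes that lie about 10 to 20 Mb from the end of the arm, out of 29744 genes in the deposited table. The members were chosen by their position and by fold changes between the lines in these same libraries, as a possible block of genes whose RNA moves together. All values of its members below are therefore descriptions of the libraries and support nothing further. Of the 52, 47 passed the filter on low counts, among 14417 genes that did. The other 5 were close to silent: TNFRSF13B, a receptor of B cells, had 0 counts in all 12 libraries, which allows up to 3 counts over the libraries of a line, or 0.0326 CPM (counts scaled to a library of 1000000) in A10. MFAP4, an extracellular microfibril protein, had 14 counts in all, ARHGAP44, a regulator of small GTPases, had 15, RASD1, a small GTPase, had 22, and TRPV2, an ion channel, had 44.

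The stretch is best known from human genetics. It is rich in repeated sequence copies, and recombination between those copies duplicates or deletes parts of it. An extra copy or a loss of PMP22 causes inherited neuropathies, and a loss or an extra copy of RAI1 causes syndromes of development and behaviour, so several of its genes are known to be sensitive to dose. In tumours the same part of the arm is often lost or gained, and it carries the kinase gene MAP2K4 and the tumour suppressor FLCN.

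RNA was sequenced from 4 human breast lines, with 3 biological replicates each, to assess a preparation workflow that also yields DNA and peptides. Only the RNA is analysed here. A10 is MCF10A, a non-tumorigenic line of mammary epithelium. NeoT is MCFNeoT, T1 is MCFT1 and CA1 is MCFCA1, described in the series as models of benign hyperplasia, of atypical hyperplasia and of invasive cancer, and the series calls all 4 lines triple-negative. As background, MCFNeoT carries an introduced mutant HRAS and the later lines descend from it, while MCF10A does not carry it. Each stage is represented by 1 line, so a difference between lines is a difference between these cultures and cannot be told apart from a difference between stages. In such bulk libraries, fewer cells making an RNA and less of it in each cell cannot be told apart. Treatment, passage and culture conditions are not given in the sources used here.

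Library totals ran from 18032404 to 35730417 counts, and levels are given as CPM of libraries scaled to each other, which are not divided by gene length. The correlation of log2 CPM over all genes tested was 0.978 to 0.989 between replicates and 0.808 to 0.905 between lines. Rows of cytoplasmic ribosomal RNA took 0.954 to 2.18% of the counts in 11 libraries and 7.76% in T1 replicate 1. NeoT stood apart by its markers. The summed level of 8 markers of mammary epithelium was 790 to 911 CPM there and 5654 to 9235 CPM in the other lines. The summed level of 5 mesenchymal markers was 16537 to 20129 CPM in NeoT against 202 to 2162 CPM in the others. Most of the NeoT sum was FN1, at a mean of 15978 CPM. VIM, CDH2 and ZEB1 were also called higher in NeoT than in A10, but SPARC was called lower, at 0.815 CPM against 70.5. In NeoT the epithelial regulator TP63 had 0 counts and the adhesion protein CDH1 a mean of 0.691 CPM, while 6 of the 8 epithelial markers still reached 1 CPM. The keratin KRT8 was higher there than in A10, at a mean of 473 CPM against 147, and KRT18 was at 329 against 349.9. The part that this difference in cell state plays in the NeoT values below was not tested. Some markers of other cell types were also higher in NeoT than in A10. The matrix gene DCN was at 632 CPM against 69.1 and the lysosomal gene CD68 at 159 against 8.27, with CD68 at 83.3 in CA1. Of 4 adipocyte markers, PPARG was at 48.0 CPM against 4.89, FABP4 at 5.93 against 0.105 and the lipid droplet gene PLIN1 at 10.5 against 0.0409. PPARG was also higher in T1 and CA1, at 40.3 and 97.3 CPM. The endothelial marker PECAM1 was at 85.6 CPM in T1 and 24.0 in CA1, against 2.09 in A10. CDH5 and VWF, the other endothelial markers, stayed below 1 CPM. The defining leukocyte genes PTPRC and CD3E and the adipocyte gene ADIPOQ had 0 counts in every line.

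Each derived line was compared with A10, and the 3 comparisons share the A10 libraries. A call means that edgeR's quasi-likelihood test, fitted to all genes, gave an adjusted p (Benjamini-Hochberg) under 0.05. In NeoT 34 members were called higher than A10 and 3 lower, where the shares of all genes called were 33.7% and 36.7%. In T1 21 were called higher and 7 lower, beside 26.0% and 25.9% of all genes. In CA1 27 were called higher and 9 lower, beside 34.4% and 36.5%. The median log2 fold change of the members was 0.57 in NeoT, 0.21 in T1 and 0.58 in CA1, and that of all other genes was -0.04, -0.01 and -0.02. These contrasts took part in choosing the list, so the counts say how the list behaves and no more. A10 had the lowest mean of the 4 lines for 27 of the 47 members and NeoT the highest for 22. Called higher than A10 in all 3 derived lines were 20 members, beside 10.5% of all genes. In 19 members all 3 A10 libraries lay below all 9 other libraries, beside 11.6% of all genes.

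The members' level in a library, taken as the median over members of log2 CPM minus each member's mean over the 12 libraries, was -0.39, -0.44 and -0.47 in the A10 libraries. It was 0.20, 0.33 and 0.26 in NeoT, -0.09, 0.02 and 0.02 in T1, and 0.13, 0.10 and 0.14 in CA1. The libraries of the 4 lines did not overlap, with A10 lowest and NeoT highest. Behind this common level the members differed greatly among themselves, as the heat map of every member in every library shows.

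**Figure D1:**
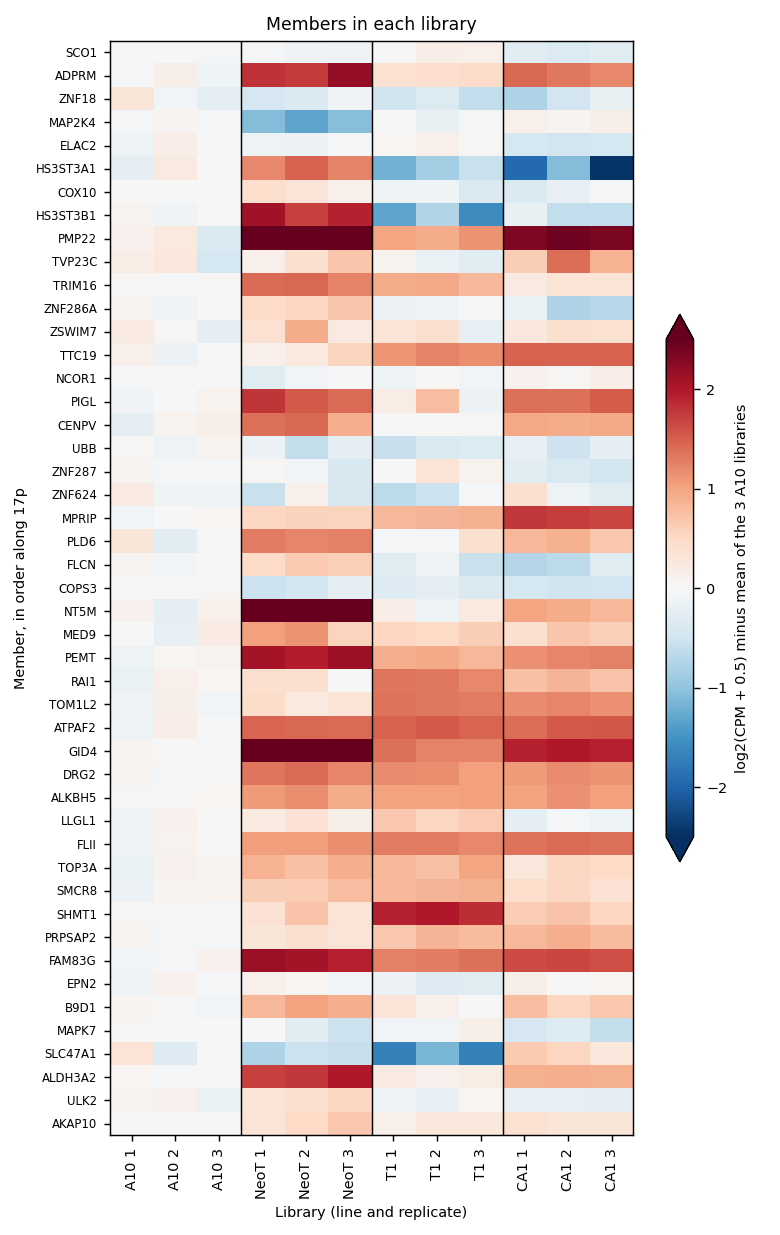
Each of the 47 tested members (rows, in order along the chromosome) in each of the 12 libraries (columns), as log2(CPM + 0.5) minus the mean of the 3 A10 libraries; red is higher and blue lower. The rows from MED9 to FAM83G are red in nearly all libraries of the 3 derived lines, while SCO1, NCOR1, COPS3 and EPN2 stay pale and NT5M and GID4 are darkest in NeoT.

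Along the chromosome 1 run of neighbouring members was called higher almost throughout. From MED9 to FAM83G, chr17:17477000-19006116 (GRCh38), lie 15 consecutive tested members over 1.53 Mb. The limits of the run were chosen after its values were seen, so they get no test. All 15 were called higher than A10 in NeoT and in T1, and 14 of 15 in CA1, the exception being the polarity gene LLGL1. Of all genes 33.7%, 26.0% and 34.4% were called higher in NeoT, T1 and CA1. The median log2 fold change of the 15 was 0.94 in NeoT, 1.14 in T1 and 1.07 in CA1. For 13 of the 15 all A10 libraries lay below all 9 others, the exceptions being RAI1 and LLGL1, beside 11.6% of all genes. Their summed level was 671, 746 and 723 CPM in the A10 libraries, and the mean ± SD of the 3 libraries was 1446 ± 17.9 CPM for NeoT, 1620 ± 32.3 for T1 and 1513 ± 49.5 for CA1. So the summed level in the 3 derived lines sat near 2 times that in A10 and close to each other. The spread between a gene's 3 fold changes against A10 had a median of 0.51 (log2) in the run and 0.97 over all other genes. It was 0.90 from SCO1 to HS3ST3B1, 1.16 from PMP22 to NT5M and 0.65 from EPN2 to AKAP10. Single genes of the run were not all even: their spreads went from 0.05 for ALKBH5 to 1.46 for SHMT1.

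Members on either side had lower medians. From SCO1 to HS3ST3B1, 8 tested members over 3.68 Mb, the medians were 0.11, -0.14 and -0.37 in NeoT, T1 and CA1, and 1 of the 8 was called higher in all 3 lines. From PMP22 to NT5M, 17 tested members over 2.12 Mb, they were 0.57, 0.10 and 0.36, with 4 of 17 called higher in all 3. From EPN2 to AKAP10, 7 tested members over 0.740 Mb, they were 0.42, -0.00 and 0.34, with 1 of 7. Of all genes 10.5% were called higher in all 3. COPS3 and NT5M are the last tested members before the run, and EPN2 is the first after it. COPS3 was lower in all 3 lines. NT5M was at 3.50 ± 0.20, 0.10 ± 0.22 and 1.06 ± 0.21 (± SE) in NeoT, T1 and CA1, near the run's median in CA1 only. EPN2 was at 0.04 ± 0.09, -0.26 ± 0.09 and 0.07 ± 0.09 in the same order.

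**Figure D2:**
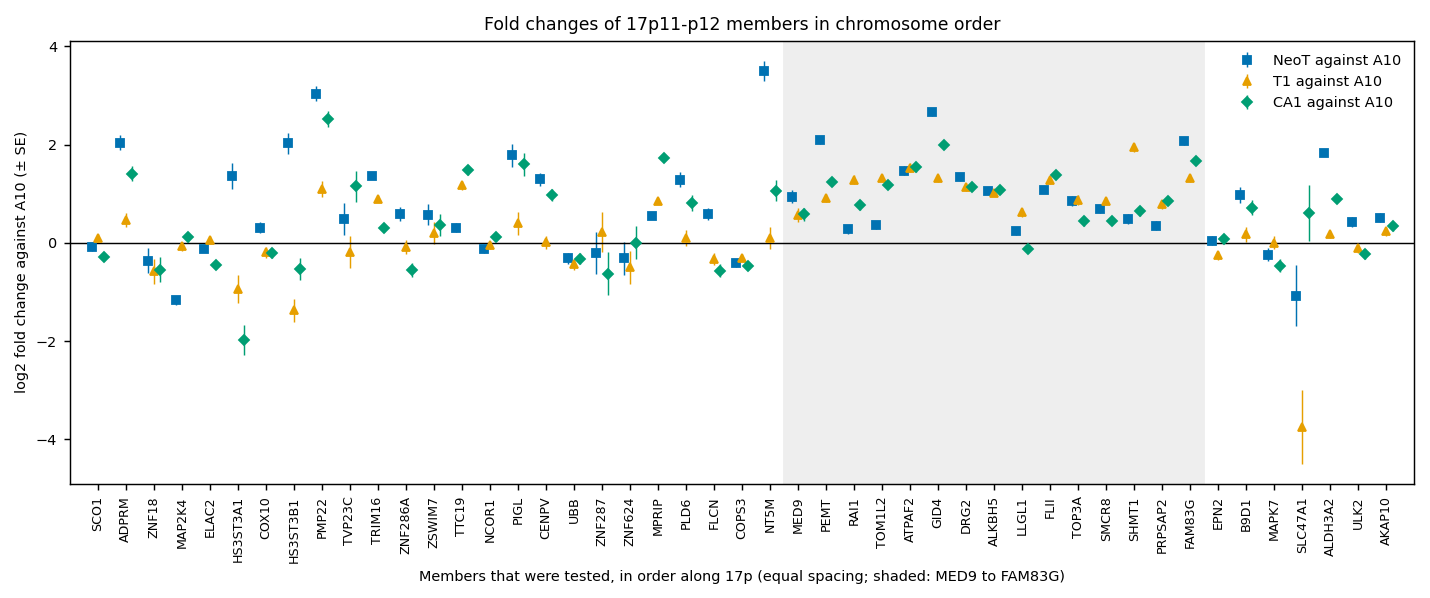
Fitted log2 fold change (± SE) of each tested member against A10, in order along 17p at equal spacing, for NeoT (squares), T1 (triangles) and CA1 (diamonds); the shaded run is MED9 to FAM83G. All points of the run but LLGL1 in CA1 (-0.13) lie above 0, while points to its left and right fall on both sides.

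The members that follow are taken by what their proteins do, and their fold changes are log2 ± SE against A10, given for NeoT, T1 and CA1 in that order unless stated. Of 13 mitochondrial and metabolic members, all tested, 11 were called higher than A10 and 0 lower in NeoT, 6 and 0 in T1, and 10 and 2 in CA1. The shares higher were 84.6%, 46.2% and 76.9%, beside 33.7%, 26.0% and 34.4% of all genes. Called lower were 36.7%, 25.9% and 36.5% of all genes. ATPAF2 helps to assemble the ATP synthase. Its level was 11.6, 14.2 and 12.4 CPM in the A10 libraries, 35.5, 35.1 and 34.6 in NeoT, 36.4, 37.7 and 35.9 in T1 and 34.2, 37.8 and 38.4 in CA1. Its fold changes of 1.46 ± 0.09, 1.53 ± 0.09 and 1.54 ± 0.09 lay within 0.07 of each other, and the A10 libraries lay far below all others. SHMT1, the cytosolic serine hydroxymethyltransferase of one-carbon metabolism, had its high value in T1. Its level was 30.9, 30.9 and 29.3 CPM in the A10 libraries, 39, 49.8 and 38.7 in NeoT, 116, 123 and 111 in T1 and 47.6, 50.2 and 44.5 in CA1. All 9 derived libraries exceeded A10, but the 3 T1 libraries stood more than 2 times above any other library, at a fold change of 1.94 ± 0.09 against 0.49 ± 0.09 in NeoT and 0.64 ± 0.09 in CA1. PEMT, which makes phosphatidylcholine by methylation, was called higher in all 3 lines, at 2.09 ± 0.09, 0.92 ± 0.09 and 1.24 ± 0.09, and PRPSAP2, a regulator of phosphoribosyl pyrophosphate synthesis, at 0.35 ± 0.09, 0.78 ± 0.09 and 0.86 ± 0.09.

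NT5M, a mitochondrial nucleotidase, lies just before the run. Its level was 1.91, 1.43 and 1.95 CPM in the A10 libraries, 21.5, 23 and 15.9 in NeoT, 2.03, 1.55 and 2.17 in T1 and 3.94, 3.76 and 3.48 in CA1. Only NeoT was high by a wide margin; CA1 lay above A10 without overlap, and T1 overlapped A10. ALDH3A2, the fatty aldehyde dehydrogenase of the endoplasmic reticulum, lies on the other side of the run. Its level was 181, 169 and 175 CPM in the A10 libraries, 574, 598 and 704 in NeoT, 203, 189 and 199 in T1 and 322, 328 and 324 in CA1. The groups did not overlap, yet T1 exceeded A10 by little and was not called. ADPRM, a phosphatase of ADP-ribose and CDP-alcohols, was called higher in all 3 lines at 2.04 ± 0.15, 0.46 ± 0.15 and 1.41 ± 0.15. PIGL is an enzyme of early GPI-anchor synthesis. Its level was 2.19, 2.37 and 2.56 CPM in the A10 libraries, 9.46, 7.85 and 7.14 in NeoT, 2.78, 4.40 and 2.09 in T1 and 6.93, 6.91 and 7.71 in CA1. NeoT and CA1 lay above A10, and the T1 libraries lay on both sides of the A10 range.

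TTC19 is an assembly factor of respiratory complex III. Its level was 48.2, 39.7 and 44.2 CPM in the A10 libraries, 47.8, 52.1 and 64.4 in NeoT, 95.1, 104 and 99.2 in T1 and 123, 123 and 123 in CA1. T1 and CA1 lay far above A10, while 1 NeoT library fell within the A10 range. PLD6, which acts at the mitochondrial surface in the making of small RNAs, was at 1.29 ± 0.16, 0.10 ± 0.16 and 0.81 ± 0.16. The members for the copper and haem of cytochrome oxidase had small fold changes: the copper chaperone SCO1 was at -0.08 ± 0.08, 0.09 ± 0.08 and -0.29 ± 0.08, and COX10, which makes its haem precursor, at 0.31 ± 0.11, -0.20 ± 0.11 and -0.21 ± 0.11. ELAC2, the nuclease that trims the end of tRNAs, was at -0.12 ± 0.07, 0.07 ± 0.07 and -0.45 ± 0.07, called lower in CA1 alone of the 3 comparisons.

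Of 11 members of chromatin, transcription and genome upkeep, all tested, 7 were called higher in NeoT, 4 in T1 and 5 in CA1, with 0, 0 and 1 called lower. The shares higher were 63.6%, 36.4% and 45.5%, of which those in T1 and CA1 were not far from the 26.0% and 34.4% of all genes. Called lower were 36.7%, 25.9% and 36.5% of all genes. ALKBH5 removes the methyl mark of adenosine in RNA. Its level was 84.4, 87 and 89.3 CPM in the A10 libraries, 183, 195 and 166 in NeoT, 176, 175 and 177 in T1 and 175, 192 and 178 in CA1. A10 lay below all other libraries and the 3 derived lines overlapped one another, with fold changes of 1.06 ± 0.07, 1.02 ± 0.07 and 1.07 ± 0.07 that spanned 0.05. RAI1, the dose-sensitive chromatin regulator, was highest in T1. Its level was 73.3, 89.8 and 85 CPM in the A10 libraries, 108, 109 and 82.4 in NeoT, 208, 206 and 191 in T1 and 138, 149.8 and 135 in CA1. T1 and CA1 lay above A10 without overlap, and NeoT overlapped A10 although it was called, at 0.28 ± 0.10.

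MED9, a subunit of the Mediator complex that links regulators to RNA polymerase, lay close to the members' median in CA1. Its level was 14, 11.9 and 16 CPM in the A10 libraries, 28.9, 30.7 and 20.8 in NeoT, 20.5, 19.9 and 21.5 in T1 and 18.5, 22.7 and 21.3 in CA1. All derived libraries exceeded A10, and the 3 derived lines overlapped one another. TOP3A, a topoisomerase that resolves crossed DNA strands, was called higher in all 3 lines at 0.84 ± 0.10, 0.86 ± 0.10 and 0.44 ± 0.10. NCOR1, a corepressor of nuclear receptors, was called in none of them, at -0.12 ± 0.08, -0.05 ± 0.08 and 0.11 ± 0.08. ZNF286A is a zinc-finger gene. Its level was 16.1, 14.5 and 15.5 CPM in the A10 libraries, 21.7, 22.5 and 25.3 in NeoT, 13.8, 14.5 and 15.4 in T1 and 13.7, 8.85 and 9.18 in CA1. NeoT lay above A10, T1 overlapped it, and CA1 lay below. The other zinc-finger genes were low: ZNF18 had 996 counts over the 12 libraries, ZNF624 had 620 and ZNF287 had 271, and none of the 3 was called in any comparison with A10. CENPV, a centromere protein, was called higher in NeoT and CA1 at 1.29 ± 0.13 and 0.97 ± 0.13 and stood at 0.01 ± 0.13 in T1, and ZSWIM7, which acts in recombination, at 0.57 ± 0.22, 0.21 ± 0.22 and 0.36 ± 0.22, was called in NeoT.

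Of 14 signalling and cytoskeletal members, 10 were tested. Of these, 8 were called higher and 1 lower in NeoT, 6 and 1 in T1, and 5 and 2 in CA1. Beside them, 33.7%, 26.0% and 34.4% of all genes were called higher and 36.7%, 25.9% and 36.5% lower. FLII, an actin-binding protein of the gelsolin family that also serves as a coactivator, lies in the run. Its level was 193, 223 and 212 CPM in the A10 libraries, 433, 429.9 and 468 in NeoT, 518, 514 and 484 in T1 and 540.5, 561 and 542 in CA1. The lines were ordered A10, NeoT, T1 and CA1 with no overlap, at fold changes of 1.08 ± 0.06, 1.27 ± 0.06 and 1.39 ± 0.06. DRG2 is a GTP-binding protein of translation. Its level was 34.9, 32.3 and 33.3 CPM in the A10 libraries, 85.2, 89.7 and 78.5 in NeoT, 77.1, 75.1 and 68.8 in T1 and 71, 76.4 and 73.5 in CA1. A10 lay below all other libraries, and T1 overlapped CA1. LLGL1, a polarity protein of the basolateral membrane, shares its end with FLII but not its pattern. Its level was 51.5, 60.5 and 56.1 CPM in the A10 libraries, 65.2, 71.9 and 61.5 in NeoT, 90.02, 81.1 and 86.7 in T1 and 47.5, 54.2 and 51.5 in CA1. CA1 overlapped A10 and T1 was highest, at 0.62 ± 0.08. SMCR8, a partner of C9orf72 in autophagy, was called higher in all 3 at 0.68 ± 0.08, 0.86 ± 0.08 and 0.45 ± 0.08.

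MPRIP anchors myosin phosphatase to actin and lies before the run. Its level was 198, 209.8 and 214 CPM in the A10 libraries, 296, 310.5 and 306 in NeoT, 370.4, 372 and 386 in T1 and 706, 688 and 662 in CA1. It was ordered A10, NeoT, T1 and CA1 without overlap, reaching 1.73 ± 0.06 in CA1. MAP2K4, a kinase that activates JNK, was the lowest member in NeoT. Its level was 40.8, 43.7 and 40.1 CPM in the A10 libraries, 19.2, 16.4 and 19.7 in NeoT, 41.1, 36.5 and 40.7 in T1 and 45, 43.6 and 45.7 in CA1. NeoT lay far below every other library, at -1.17 ± 0.09, while T1 and CA1 overlapped A10. FLCN, the folliculin tumour suppressor of nutrient signalling, lies shortly before the run. Its level was 21.6, 19.5 and 20.7 CPM in the A10 libraries, 29, 32.7 and 31.5 in NeoT, 16.7, 18.7 and 13.8 in T1 and 12.2, 12.8 and 16.6 in CA1. NeoT lay above A10 and both T1 and CA1 below it, at 0.59 ± 0.13, -0.33 ± 0.13 and -0.56 ± 0.13.

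The signalling members beyond the run had smaller fold changes. AKAP10, an anchor of protein kinase A, was called higher in all 3 at 0.51 ± 0.09, 0.23 ± 0.09 and 0.34 ± 0.09. MAPK7, the kinase ERK5, was at -0.25 ± 0.13, -0.00 ± 0.13 and -0.47 ± 0.13, called lower in CA1. ULK2, an autophagy kinase, was at 0.42 ± 0.10, -0.10 ± 0.10 and -0.23 ± 0.10, called higher in NeoT.

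Of 10 membrane and trafficking members, 9 were tested; 6 were called higher and 0 lower in NeoT, 3 and 4 in T1, and 5 and 2 in CA1. The shares higher were 66.7%, 33.3% and 55.6%, beside 33.7%, 26.0% and 34.4% of all genes. The share higher in T1 was thus near the background. The share lower was 44.4% in T1 and 22.2% in CA1, where 25.9% and 36.5% of all genes were called lower. In NeoT 36.7% of all genes were called lower. The median of these members in T1 was -0.19. PMP22 is a membrane protein of compact myelin that is also made outside nerve. Its level was 3.54, 3.93 and 2.42 CPM in the A10 libraries, 24.2, 25.7 and 31.8 in NeoT, 6.87, 6.65 and 7.60 in T1 and 18.3, 19.6 and 18.7 in CA1. All derived libraries exceeded A10, with NeoT above CA1 and CA1 above T1, at 3.04 ± 0.16, 2.51 ± 0.16 and 1.09 ± 0.16. HS3ST3A1 and HS3ST3B1 are close copies that add a sulfate to heparan sulfate. HS3ST3A1 was at 5.73, 8.05 and 6.86 CPM in the A10 libraries, at 16.4, 19.8 and 16.8 in NeoT, at 2.70, 3.54 and 4.50 in T1 and at 1.41, 2.94 and 0.838 in CA1. HS3ST3B1 was at 4.72, 4.21 and 4.55 CPM in the A10 libraries, at 21, 15.8 and 18.4 in NeoT, at 1.49, 2.47 and 1.19 in T1 and at 3.89, 2.76 and 2.77 in CA1. For both genes NeoT lay above A10 and T1 and CA1 below it, with no overlap with A10. Because estimated counts of near-identical copies can be shared out between them, their sum was also taken: A10 had 11.4 ± 0.906 CPM, NeoT 36.1 ± 1.16, T1 5.30 ± 0.966 and CA1 4.87 ± 1.11 (SD, n = 3).

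TOM1L2, an adaptor that sorts ubiquitinated cargo, lies in the run. Its level was 49.3, 58 and 49.5 CPM in the A10 libraries, 72.3, 61.7 and 66.3 in NeoT, 133, 131 and 129 in T1 and 119, 121 and 116 in CA1. NeoT exceeded A10 by little, and T1 and CA1 by more than 2 times on average. FAM83G, a scaffold of casein kinase, closes the run at 2.08 ± 0.08, 1.32 ± 0.08 and 1.66 ± 0.08. EPN2, an endocytic adaptor next to it, was called lower in T1 and in no other comparison with A10. B9D1, a protein of the ciliary transition zone, was called higher in NeoT and CA1 at 0.97 ± 0.15 and 0.71 ± 0.15, and stood at 0.18 ± 0.15 in T1. SLC47A1, an exporter of organic cations, had 263 counts over the 12 libraries, and 1 of the 3 T1 libraries had any. TVP23C, a Golgi protein, had 703 counts and was called higher in CA1 at 1.15 ± 0.32.

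The 4 members of ubiquitin signalling and protein turnover split evenly: TRIM16 and GID4 were called higher and UBB and COPS3 lower in each comparison with A10. Beside them, 33.7%, 26.0% and 34.4% of all genes were called higher and 36.7%, 25.9% and 36.5% lower, so 2 of 4 in each direction was not far from the background. GID4 recognises substrates for the CTLH ubiquitin ligase. Its level was 17.9, 16.9 and 16.4 CPM in the A10 libraries, 103, 104 and 116 in NeoT, 45.2, 41.2 and 40.9 in T1 and 66.1, 70.3 and 67.3 in CA1. No lines overlapped, and the order was A10, T1, CA1 and NeoT, at 1.31 ± 0.08, 1.99 ± 0.08 and 2.66 ± 0.08. TRIM16, a ligase linked to damaged membranes, was at 1.37 ± 0.07, 0.90 ± 0.07 and 0.30 ± 0.07. COPS3 is a subunit of the COP9 signalosome, which controls cullin ligases. Its level was 85, 85.7 and 87.4 CPM in the A10 libraries, 59.1, 62.5 and 72.9 in NeoT, 68.9, 73.4 and 67.2 in T1 and 63.1, 60.7 and 62 in CA1. All A10 libraries exceeded all others, at fold changes of -0.41 ± 0.08, -0.30 ± 0.08 and -0.47 ± 0.08. UBB encodes ubiquitin itself. Its level was 274, 245 and 282 CPM in the A10 libraries, 240.1, 175 and 229 in NeoT, 178, 203 and 211 in T1 and 232, 186 and 223 in CA1. Every derived library lay below the A10 range, at -0.31 ± 0.11, -0.44 ± 0.11 and -0.32 ± 0.11, but the spread within lines was large and the NeoT call was lost when A10 replicate 1, A10 replicate 3, NeoT replicate 2 or NeoT replicate 3 was left out (adjusted p 0.0576 to 0.0911, edgeR).

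**Figure D3:**
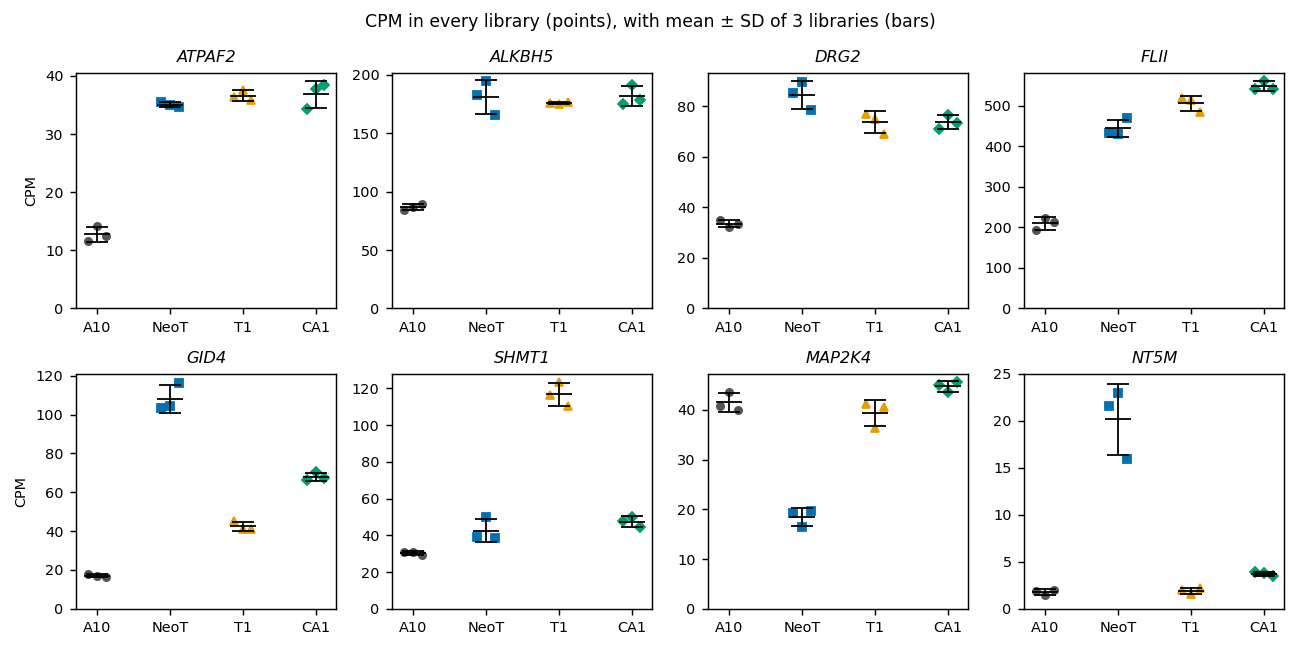
CPM of 8 members in every library (points), with the mean and SD of the 3 libraries of a line (bars), each panel from 0. ATPAF2, ALKBH5, DRG2 and FLII are near 2 to 3 times A10 in all 3 derived lines, whereas GID4 and NT5M are highest in NeoT, SHMT1 in T1, and MAP2K4 is low in NeoT.

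Between the derived lines the members were called in both directions, and these contrasts too had been seen before the list was made. The highest and lowest below are those among members with at least 5 CPM in 1 of the 4 lines, which leaves out 5 tested members. Of these, SLC47A1 was called lower from NeoT to T1 at -2.67 ± 0.80 and higher from T1 to CA1 at 4.36 ± 0.75 and from NeoT to CA1 at 1.69 ± 0.62, and TVP23C higher from T1 to CA1 at 1.34 ± 0.33. From NeoT to T1, 10 members were called higher and 23 lower, beside 35.0% and 32.4% of all genes, with a median of -0.28. NT5M at -3.40 ± 0.20, HS3ST3B1 at -3.40 ± 0.23 and HS3ST3A1 at -2.31 ± 0.28 were lowest, and SHMT1 at 1.46 ± 0.09, MAP2K4 at 1.10 ± 0.09 and RAI1 at 1.01 ± 0.10 highest. From T1 to CA1, 17 were called higher and 11 lower, beside 30.4% and 31.9%, with a median of 0.11. That median rests on T1 replicate 1, the library with the high share of ribosomal RNA: it was 0.042 without it. PMP22 at 1.42 ± 0.15, PIGL at 1.21 ± 0.23 and NT5M at 0.96 ± 0.21 were highest, and SHMT1 at -1.30 ± 0.09, HS3ST3A1 at -1.04 ± 0.32 and LLGL1 at -0.75 ± 0.08 lowest, of which HS3ST3A1 was no longer called without CA1 replicate 3.

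Set against NeoT, CA1 had 9 members called higher and 23 lower, beside 33.8% and 32.7%, with a median of -0.22. MAP2K4 at 1.28 ± 0.09, MPRIP at 1.17 ± 0.06 and TTC19 at 1.17 ± 0.10 were highest, and HS3ST3A1 at -3.34 ± 0.31, HS3ST3B1 at -2.56 ± 0.22 and NT5M at -2.44 ± 0.19 lowest. Within the run MED9 to FAM83G the medians of these 3 comparisons were 0.06 from NeoT to T1, 0.01 from T1 to CA1 and -0.20 from NeoT to CA1. Its single members did differ between these lines. Of its 15, 6 were called higher and 5 lower from NeoT to T1, 3 and 5 from T1 to CA1, and 4 and 8 from NeoT to CA1. The shares of all genes called higher and lower were 35.0% and 32.4%, 30.4% and 31.9%, and 33.8% and 32.7%, in the same order. ATPAF2 and ALKBH5 were called in none of the 3 comparisons, with fold changes from -0.04 to 0.07.

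Neighbouring members that start close together and point away from each other let the run be compared with its surroundings at single starts. Among the 46 members with a RefSeq promoter, 3 such pairs had at most 300 bases between starts, and both genes of each were tested. GID4 has no such promoter, so it was not searched with its neighbour ATPAF2 in the run. ATPAF2 ends at chr17:18039168 and GID4 begins at chr17:18039408, so they too lie close together. Against A10, ATPAF2 was at 1.46, 1.53 and 1.54 and GID4 at 2.66, 1.31 and 1.99 in NeoT, T1 and CA1. These 2 genes of the run were thus not alike in NeoT. The sequences between the starts of the 3 pairs (RefSeq, GRCh38.p14, plus strand, 5′ to 3′) are shown. Of these, 1 pair had like fold changes in all 3 lines and the other 2 did not. Capitals mark matches to searched motifs. The first lies at chr17:10697534-10697593, the next at chr17:15999705-15999823, and the last, 250 of the 298 bases between its starts, at chr17:18315043-18315292.
SCO1 and ADPRM: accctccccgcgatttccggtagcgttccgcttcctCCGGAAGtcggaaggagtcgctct
ZSWIM7 and TTC19: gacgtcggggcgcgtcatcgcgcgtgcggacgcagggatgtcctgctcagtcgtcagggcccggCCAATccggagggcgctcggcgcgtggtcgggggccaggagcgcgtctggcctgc
TOP3A and SMCR8: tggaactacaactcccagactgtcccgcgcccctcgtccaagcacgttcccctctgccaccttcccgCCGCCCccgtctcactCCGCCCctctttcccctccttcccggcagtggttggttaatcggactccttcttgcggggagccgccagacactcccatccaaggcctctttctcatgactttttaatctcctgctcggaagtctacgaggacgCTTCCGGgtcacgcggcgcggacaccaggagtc

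All 3 stretches are rich in CpG: they hold 8, 19 and 20 CpG, where the median promoter stretch of the same length holds 3, 6 and 11. GC content was 63.3%, 75.6% and 62.4%. The motifs searched, on both strands, were GGGCGG (the GC box), CCAAT (the CCAAT box), CCGGAAG (the site of ETS factors), TATAAA (the TATA box) and CACGTG (the E-box). The stretch of SCO1 and ADPRM matched CCGGAAG, present in 4.11% of 35116 promoter stretches of that length, and that of ZSWIM7 and TTC19 matched CCAAT, present in 20.3%. The stretch of TOP3A and SMCR8 matched GGGCGG at 2 places and CCGGAAG at 1, present in 42.6% and 8.52%. These are matches of letters only. TOP3A and SMCR8, inside the run, had fold changes close to each other in each line: 0.84 ± 0.10 and 0.68 ± 0.08 in NeoT, 0.86 ± 0.10 and 0.86 ± 0.08 in T1, and 0.44 ± 0.10 and 0.45 ± 0.08 in CA1. SCO1 and ADPRM, whose starts are 60 bases apart, differed most: ADPRM was at 4.57, 5.27 and 4.34 CPM in A10 and at 17.8, 17.1 and 23.4 in NeoT, where SCO1 was at 40.5, 39.9 and 39.2 and at 38.8, 36.7 and 37.3. So ADPRM in NeoT lay far above A10 beyond the spread between libraries, while SCO1 in NeoT lay just below it. ZSWIM7 and TTC19 differed in T1 and CA1, TTC19 at 1.17 ± 0.10 and 1.48 ± 0.10 and ZSWIM7 at 0.21 ± 0.22 and 0.36 ± 0.22.

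**Figure D4:**
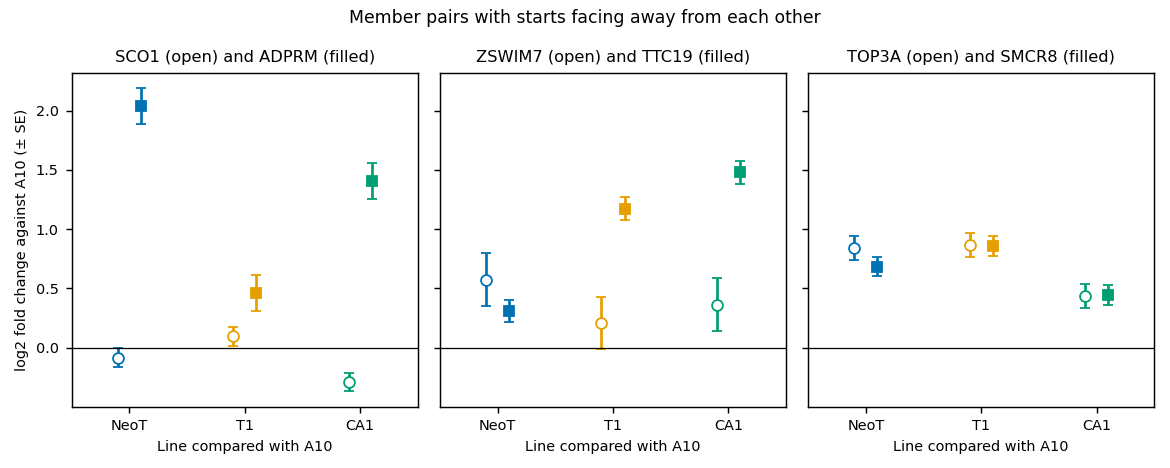
Fitted log2 fold change (± SE) against A10 of the 3 member pairs found among RefSeq promoters. Their starts face away from each other. Each panel is 1 pair, the left-hand gene open and the right-hand gene filled. TOP3A and SMCR8 lie together in each line, while ADPRM is at 2.04 in NeoT where SCO1 is at -0.08.

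The rest of chromosome 17 did not share the shift. Its 772 other tested genes outside the stretch had medians of -0.08, 0.00 and -0.04 in NeoT, T1 and CA1. Among windows of 2 Mb with at least 15 tested genes, 282 over the genome, the window from 18 to 20 Mb of chromosome 17 had medians of 1.02, 0.86 and 0.88, and that from 16 to 18 Mb had 1.06, 0.56 and 1.00. Ranked by the lowest of the 3 medians, these were the highest of the 282, at 0.86 and 0.56, and the next, from 36 to 38 Mb of chromosome 9, had 0.51. Members made up 18 of 30 and 15 of 23 tested genes of these windows, so the ranking repeats what chose the list. Just outside the list, GAS7 before SCO1 was at -5.63, -0.66 and 0.45, and SPECC1 after AKAP10 at -0.38, 0.32 and 0.95, neither near the run's values in all 3 lines.

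**Figure D5:**
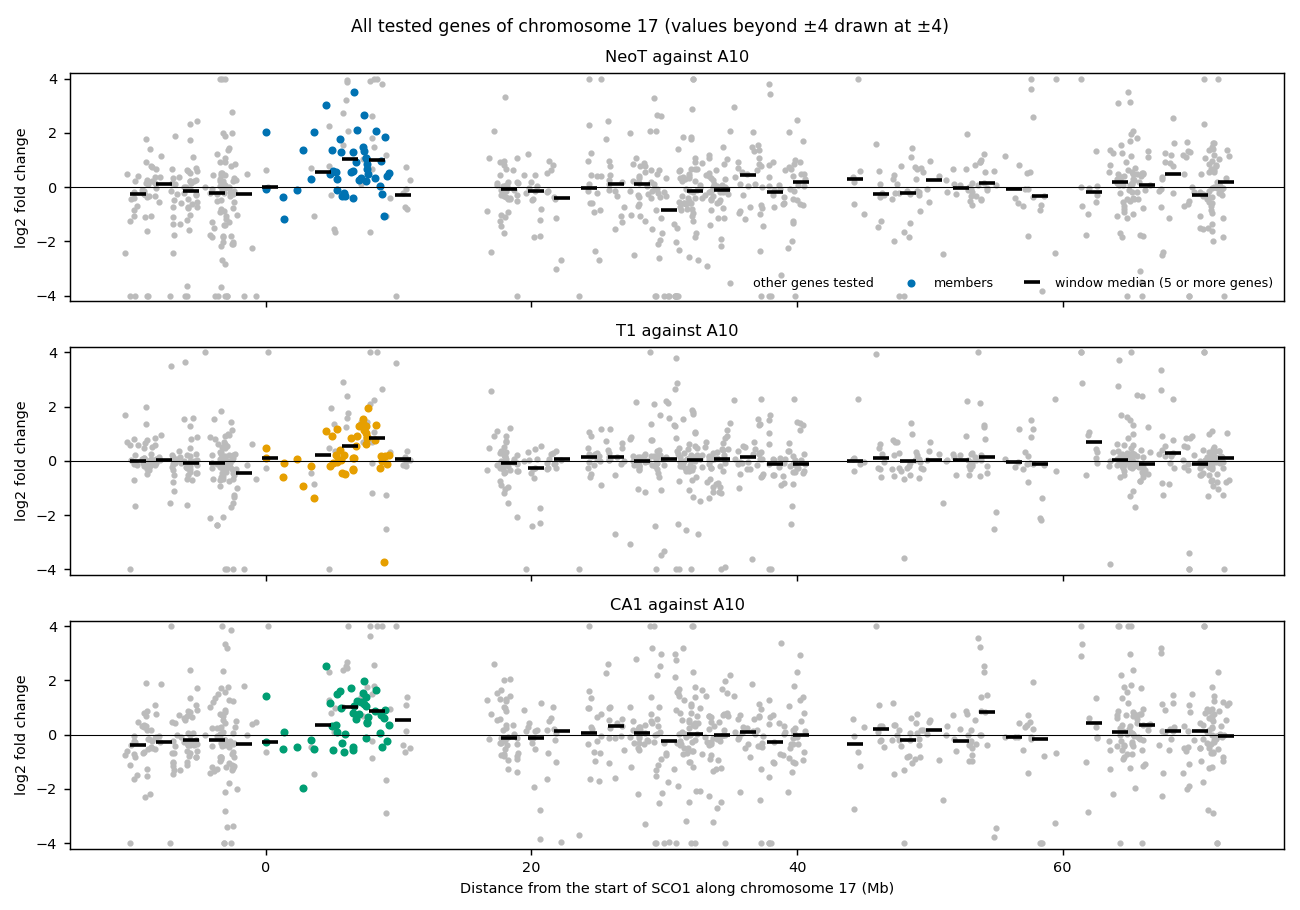
Log2 fold change against A10 of all tested genes of chromosome 17 by distance in Mb from the start of SCO1, members coloured and other genes grey, with medians of 2 Mb windows as bars; values beyond 4 are drawn at the edge. The bars between about 6 and 9 Mb lie at 0.56 to 1.06 in all 3 panels, while the bars of the rest of the chromosome scatter around 0.

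Genes of the same stretch that are not on the list were looked at as well. There were 85, of which 29 were tested, with medians of 1.20 in NeoT, 1.23 in T1 and 1.48 in CA1. Within the limits of the run 10 were tested, and their medians were 1.27, 1.25 and 1.61. The 11 tested between PMP22 and NT5M had medians at least as high, 2.07, 1.38 and 2.30. The NeoT median is that of a gene with 1 count in NeoT and 0 in A10. The CA1 median is that of a gene not called. Called higher were 5, 7 and 6 of the 11, and 6 of the 10 of the run in each line. Called lower were 2, 0 and 0 of the 11, and 0, 1 and 0 of the 10. Of all genes 33.7%, 26.0% and 34.4% were called higher and 36.7%, 25.9% and 36.5% lower. So among genes outside the list higher calls were not particular to the run. The 3 tested between SCO1 and HS3ST3B1 had 0.62, -0.27 and -0.47, and the 3 between EPN2 and AKAP10 had 1.20, -1.25 and -1.68. SREBF1, the master regulator of lipid synthesis that lies between RAI1 and TOM1L2, was at 0.12 ± 0.08 in NeoT, where it overlapped A10 and was not called, and at 1.45 ± 0.08 in T1 and 1.39 ± 0.08 in CA1. Its neighbours RAI1 and TOM1L2 had the same order, with NeoT lowest of the 3 derived lines. GRAP, an adaptor of Ras signalling just past FAM83G, had 0 counts in A10 and was at least 52.6-fold higher in NeoT, 105-fold in T1 and 205-fold in CA1, taking 3 counts over the A10 libraries as the floor. ADORA2B, an adenosine receptor between ZNF286A and ZSWIM7, was lower in NeoT at -1.65 ± 0.08 and higher in T1 and CA1 at 0.35 ± 0.08 and 0.99 ± 0.08. ALDH3A1, a copy next to ALDH3A2, was higher in NeoT at 1.20 and lower in T1 and CA1 at -1.25 and -2.89.

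The repeated copies of the stretch limit some of these values. TRIM16, TVP23C and ZNF286A each have a near copy a few Mb away, and of the genes outside the list USP32P1, at 3.86, 1.60 and 2.67, and CCDC144B, at 3.93, 2.09 and 3.62, are copies of other genes. So are FOXO3B, at 1.82, -0.09 and -0.23, and MEIS3P1, at -1.54, 1.38 and 0.10, while FAM211A-AS1, a non-coding gene near TRPV2, was at 1.54, 0.14 and 1.00. Summed with TRIM16L, TRIM16 gave A10 87.4 ± 2.31 CPM, NeoT 305 ± 18.4, T1 157 ± 10.02 and CA1 142 ± 8.48. TVP23C with TVP23B came to 41.6 ± 4.74, 114 ± 11.6, 85.3 ± 5.07 and 142 ± 0.848 CPM (SD, n = 3). These sums were lowest in A10 without overlap in their means ± SD. That of ZNF286A and ZNF286B was not: it came to 16.7 ± 0.875, 25.3 ± 1.73, 15.1 ± 0.748 and 11.3 ± 2.51 CPM. Of the 52 members 25 overlap another gene of the table. Among them are TVP23C with TVP23C-CDRT4 by 61220 bases, FAM83G with SLC5A10 by 37328 and TTC19 with NCOR1 by 15859. Smaller overlaps include EPN2 with B9D1 by 2021, SMCR8 with SHMT1 by 184, RAI1 with SREBF1 by 120 and LLGL1 with FLII by 61. Whether counting used the strand is not given in the sources used here, so reads from such overlaps cannot be told apart. TVP23C-CDRT4, not on the list, had 1914 counts over the 12 libraries and TVP23C had 703. The NeoT libraries had 9.16, 0 and 6.96 CPM of TVP23C-CDRT4. How counts were shared between it and TVP23C was not tested.

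Known partners of the members, encoded elsewhere in the genome, were read beside them. The list of 100 partners of 29 members came from general knowledge, and 99 were tested. In NeoT 40 were called higher and 37 lower with a median of 0.01, in T1 19 and 29 with 0.02, and in CA1 32 and 38 with -0.05. These medians lay near those of all other genes. Of all genes 33.7% were called higher and 36.7% lower in NeoT, 26.0% and 25.9% in T1, and 34.4% and 36.5% in CA1. TOP3A works with BLM, RMI1 and RMI2, and these 3 were called lower in all 3 lines, BLM at -2.02, -0.77 and -2.04. For SHMT1, the thymidylate synthase gene TYMS was called lower at -1.71, -1.24 and -1.84, and the mitochondrial SHMT2 higher at 0.27, 0.40 and 0.67. COPS3 was lower in all 3 lines. Of its 8 partner subunits 6 were called higher and 1 lower in NeoT, 1 and 3 in T1, and 3 and 2 in CA1, with medians of 0.44, 0.04 and -0.09. ATPAF1, the other assembly factor of the ATP synthase, was called higher at 0.78, 0.39 and 0.42, against 1.46, 1.53 and 1.54 for ATPAF2.

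DRG1, the close relative of DRG2, was at 0.48, 0.07 and 0.01, called in NeoT only of the 3 comparisons. C9orf72, 1 of the 2 tested partners of SMCR8, was called higher at 2.19, 0.46 and 1.99. The other partner was at 0.22, -0.37 and -0.06, called higher in NeoT, lower in T1 and not called in CA1. Of the 8 listed CTLH partners of GID4, 3 were called higher and 3 lower in NeoT, with MAEA at -1.57, and YPEL5 was called higher in all 3 lines at 0.72, 0.43 and 0.73. LLGL2, the relative of LLGL1, was at -4.08 in NeoT and 1.62 and 1.58 in T1 and CA1. MAP2K7, which shares the task of MAP2K4, was called higher in NeoT at 0.51, where MAP2K4 was at -1.17.

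Outside the stretch, the genes most like the members' level over the 12 libraries were PYGB, a glycogen phosphorylase, OBFC1, a telomere protein, and RHOB, a small GTPase, with Pearson correlations of 0.982, 0.980 and 0.980. The 12 points fall into 4 lines, so such a correlation mostly restates the order A10, T1, CA1 and NeoT of the line means. DNA copy number was not analysed here, and its part in any of these values was not tested.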

How the data were processed

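The authors deposited expected counts (estimated reads per gene, unscaled) for 12 libraries, which the name of their file credits to Salmon. Per the labels' protocols, DNase I-treated total RNA went into NEBNext Ultra libraries. The submitters' processing notes list limma and GRCh38, and other upstream settings are not given in the sources used here. Of the values, 10.1% were not whole, and rounding moved none by more than 0.5. Genes were filtered with filterByExpr on the line, scaled by TMM and fitted with edgeR 4.0.16 (R 4.3.3, quasi-likelihood, robust, 1 mean per line, all 12 libraries), and p-values were adjusted by Benjamini-Hochberg over 14417 genes. The fit was tested on simulated counts. SEs were derived from each fitted log2 fold change and its quasi-likelihood F statistic. Positions come from RefSeq GRCh38.p14, matched by symbol for 23123 genes and by synonym for 1786, with 4835 unmatched. RefSeq promoters matched 46 of 52 members.

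The members and all lists were chosen with earlier results of these data known. Library values are printed for the 3 highest and 3 lowest members with at least 5 CPM in 1 line in each of 6 comparisons and for the 2 members nearest the median in CA1 against A10. Values of ALKBH5, DRG2, FLII, ALDH3A2, ADPRM and SCO1 were added after they were seen. Genes of the stretch outside the list are named by the same rule in the comparisons with A10, apart from the copies summed with members. Replicate numbers do not pair the libraries: deviations of same-numbered libraries of different lines correlated at -0.069 to 0.088. Alternatives were DESeq2 1.42.0, limma 3.58.1 with voom, other scaling, filters and sample sets, and each library left out.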

Additional observations from a re-analysis of the deposited data

How the results depend on the processing

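Under 10 alternatives for each comparison (RLE and upper-quartile factors, other filters, DESeq2, limma-voom, only the libraries compared, a replicate block, no ribosomal RNA, and T1 replicate 1 with NeoT replicate 3 left out) and with each library left out, every count of members called stayed within 1.5 times its value, and no median or named member reversed. With the replicate block 20 members were called higher and 6 lower in T1 against A10, and 22 lower in CA1 against NeoT. The numbers share no origin in the labels, and 7 of 12 libraries correlated best with their own number. The members' median in CA1 against T1 was 0.043 without T1 replicate 1 and NeoT replicate 3, and 0.042 to 0.13 with 1 library left out, lowest without T1 replicate 1. In CA1 against NeoT it was -0.30 with upper-quartile factors. With 1 or both of these libraries or another left out it was 0.16 to 0.28 in T1 against A10 and 0.48 to 0.58 in CA1 against A10. UBB in T1 against A10 was not called without T1 replicate 1 and NeoT replicate 3 (edgeR adjusted p 0.061). HS3ST3A1 in CA1 against T1 was at -0.68 and not called without CA1 replicate 3. Over all 22 alternatives, tried on the run MED9 to FAM83G after its values were seen, its median was 0.88 to 1.05 in NeoT, 1.10 to 1.18 in T1 and 1.03 to 1.09 in CA1 against A10, with 13 to 15, 15 and 14 members called higher. For genes of the stretch outside the list the median depended on its limits: widening it by 1 Mb at each end gave 0.70 in NeoT and 0.69 in T1 against A10 and -0.35 in T1 against NeoT, and narrowing it gave 1.48 in NeoT and -0.41 in T1 against NeoT. Members with few counts, such as SLC47A1 and ZNF287, are limited by depth, and intervals and floors cover counting error only.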
